A study of Homo sapiens with 12 samples.

Results

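Alternative 5′ splice sites are pairs of sites at which the same exon can end. The site nearer the start of the exon gives the short form, and the site farther downstream adds an extension to the exon and gives the long form. The table of these events held 4430 distinct events over 4 comparisons of A549 cells. An event was kept in a comparison when each of its 6 libraries held at least 10 reads when both forms were added up. This left 3154 of 3854 events for Cisplatin in control cells, 3175 of 3916 for Cisplatin in RNF113A-depleted cells, 3113 of 3834 for depletion in untreated cells and 3194 of 3913 for depletion in Cisplatin-treated cells. In all, 3679 events in 2399 genes were kept at least once, and they used 3370 pairs of sites. The full series listed 96477 to 99787 events of 5 kinds in each comparison.

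A 5′ splice site marks the start of an intron and nearly always opens with GT. It is first recognised by U1 snRNP through base pairing across the end of the exon and the start of the intron, and is later handed to U6 in the activated spliceosome. RNF113A, a RING finger protein, is a subunit of the spliceosome. A shift between 2 sites can add or remove amino acids, change the reading frame or bring a stop codon into the mRNA, and an mRNA with an early stop codon is a usual substrate of nonsense-mediated decay.

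The libraries came from A549 cells, a human lung adenocarcinoma line, into which a lentivirus had brought either an shRNA control (shControl) or one shRNA that targets RNF113A (shRNF113A). All cells had been selected with puromycin at 1 µg/ml for 4 days and were then left untreated or treated with Cisplatin, a DNA-crosslinking drug, at 25 µg/ml for 20 h by the labels, with 3 libraries in each of 4 groups. Cisplatin is given in µM for other experiments of the study, and which unit applies here was not settled. The infected cells were a selected pool. The depleted cells carried a single shRNA sequence, so its effects on other transcripts cannot be told apart from depletion. RNF113A mRNA was 18.8, 19.6 and 18.8 CPM (counts of read pairs scaled to the total on genes) in untreated control libraries and 14.9, 15.5 and 16.3 CPM in untreated depleted libraries, with no overlap (exact two-sided permutation p = 0.1, the smallest that 3 against 3 allows). After Cisplatin it was 31.7, 30.5 and 28.5 CPM in control and 27.0, 25.5 and 30.5 CPM in depleted libraries, and these groups overlapped (exact two-sided permutation p = 0.2). The libraries held 26220526 to 45721152 read pairs on genes, and the 3 Cisplatin-treated depleted libraries were the 3 smallest. The A549 markers NQO1, AKR1B10 and ALDH1A1 were at 925 CPM or more in every library. Of the epithelial markers KRT8, KRT18 and CDH1 were at 32.7 CPM or more in every library, while EPCAM ran from 3.68 to 94.3 CPM and KRT19 did not exceed 5.14 CPM. The lung alveolar markers NKX2-1, SFTPB and SFTPC did not exceed 0.617 CPM. The leukocyte marker PTPRC did not exceed 0.128 CPM, while the fibroblast marker COL1A1 ran from 3.21 to 35.0 CPM. The other leukocyte, endothelial and fibroblast markers, CD3E, PECAM1, CDH5 and COL3A1, did not exceed 0.61 CPM.

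The inclusion level is the share of the long form, in percent, after the reads of each form were divided by the length over which that form can be seen. Differences are given in percentage points. Reads of the long form include every read inside the extension, so a read from an unspliced intron also counts towards it, and levels from junction reads alone were not analysed here. Within a group the splicing table gives 3 unnamed libraries, here a, b and c. Values are mean ± SD (n = 3 libraries) unless the single values are given, and adjusted p-values come from the quasi-likelihood test of edgeR over all events of a comparison with the Benjamini-Hochberg method.

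The sequences of the pairs that the results below turn on are shown first. Each was read from the GRCh37 genome on the strand of its gene, 5′ to 3′, and the capitals mark the first 2 bases of the intron at each site. Where the sites lie 4 nucleotides apart, 1 run holds both, and elsewhere each run holds 10 bases on either side of 1 site.
CLASRP both sites, chr19:45571303-45571322, plus strand: agctgccaaaGTcaGTaaga
METTL10 both sites, chr10:126477602-126477621, minus strand: ggttgaacttGTtgGTactt
NABP1 upstream site, chr2:192542958-192542977, plus strand: gcgcgcccgtGTgagtgagc
NABP1 downstream site, chr2:192543422-192543441, plus strand: ctggagatagGTaagtgggg
AMZ2 upstream site, chr17:66246602-66246621, plus strand: cagtccattgGTaaatactg
AMZ2 downstream site, chr17:66247099-66247118, plus strand: attcatgcagGTgaattaca
SMC4 upstream site, chr3:160130232-160130251, plus strand: aatattatatGTaagtgcct
SMC4 downstream site, chr3:160130628-160130647, plus strand: aagttgggagGTaggttcac
BCL2L1 upstream site, chr20:30309637-30309656, minus strand: ctttgaacagGTagtgaatg
BCL2L1 downstream site, chr20:30309448-30309467, minus strand: cggcggctggGTaagaacca
CASP8 upstream site, chr2:202141682-202141701, plus strand: ttggatgcagGTacagtaga
CASP8 downstream site, chr2:202141818-202141837, plus strand: ccctgtggagGTaaagaaca
LIG1 upstream site, chr19:48624417-48624436, minus strand: catatgcaagGTcctgggga
LIG1 downstream site, chr19:48623414-48623433, minus strand: gttctgatggGTaatgtgat
RPL3 upstream site, chr22:39715590-39715609, minus strand: tggcgtgatgGTatgtgttg
RPL3 downstream site, chr22:39715385-39715404, minus strand: gggcctgcagGTcggccaga
HNRNPH1 upstream site, chr5:179044012-179044031, minus strand: atgggtttgtGTaaatatca
HNRNPH1 downstream site, chr5:179043860-179043879, minus strand: atgggcttgtGTaaatatcg

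The introns of the members opened with GT at 97.9% of upstream and 97.4% of downstream sites and with GC at 2.08% and 2.17%, and 14 downstream sites had neither. The distance between the sites ran from 1 to 14876 nucleotides with a median of 90. The most frequent distance was 4 nucleotides, which 113 pairs (3.35%) had, and 86 of these pairs read GTNNGT (GT, any 2 bases, GT) from the upstream site. Distances of 9, 12, 15 and 6 nucleotides followed with 58, 57, 55 and 52 pairs, while 38 pairs lay 5 apart. A distance that is a multiple of 3 keeps the reading frame. Up to 50 nucleotides, 48.7% of the 955 pairs whose upstream site lies in a coding region were multiples of 3, against 33.6% of the 304 pairs elsewhere, and 33.3% of all whole numbers are. The share over 50 nucleotides was 37.8%. By the GENCODE transcripts, the upstream site lay in a coding region in 76.4% of pairs, in a 5′ UTR in 14%, in a 3′ UTR in 2.46% and in a noncoding transcript in 6.74%. In coding regions an in-frame stop codon stood in the extension of 16.6% of pairs up to 50 nucleotides apart and of 67.4% of pairs farther apart.

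**Figure D1:**
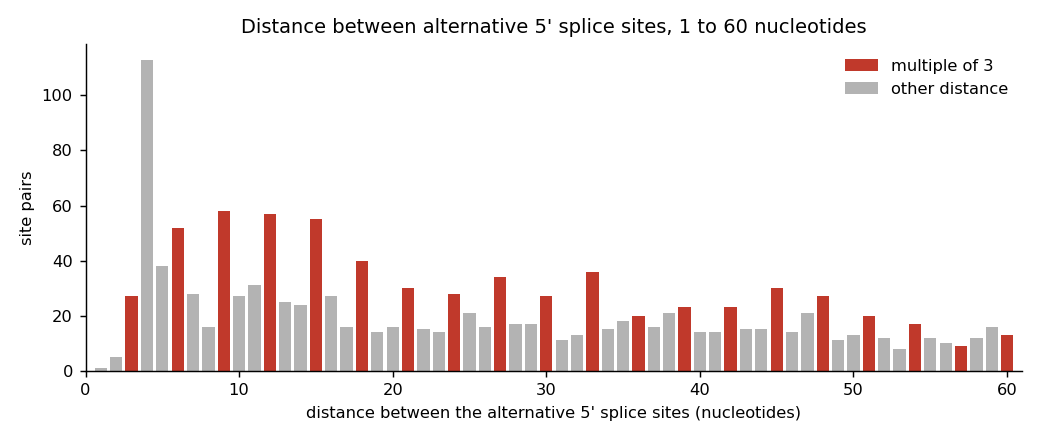
Number of site pairs (y axis) at each distance from 1 to 60 nucleotides (x axis), with multiples of 3 in red and other distances in grey. The 113 pairs at 4 nucleotides stand above all other distances shown, and red bars at 6, 9 and 12 rise above their neighbours.

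In untreated control cells most pairs used 1 site almost alone. Of 3151 pairs with at least 10 reads in each of the 3 libraries, 905 (28.7%) had an inclusion level under 10%, 1415 (44.9%) had one over 90%, and 831 (26.4%) lay between. The level moved with the likeness of the 2 sites to annotated sites, scored in bits over 3 exonic and 6 intronic bases against 217238 annotated 5′ splice sites. Where the downstream site scored over 4 bits below the upstream site the median level was 6.74% (324 pairs), and where it scored 4 bits or more above it the median was 98.0% (361 pairs). The rank correlation between score difference and level across pairs was 0.70 up to 6 nucleotides, 0.44 from 7 to 50, 0.29 from 51 to 200, 0.17 above 200 and up to 500 and 0.06 above 500 (223, 984, 1034, 550 and 360 pairs). These are descriptions over pairs that share the same 3 libraries. The site with the higher score was the more used one in 62.3% of pairs. The median level also rose with distance, from 14.7% up to 6 nucleotides to 97.7% above 500, and the length over which the long form collects reads rises with it.

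**Figure D2:**
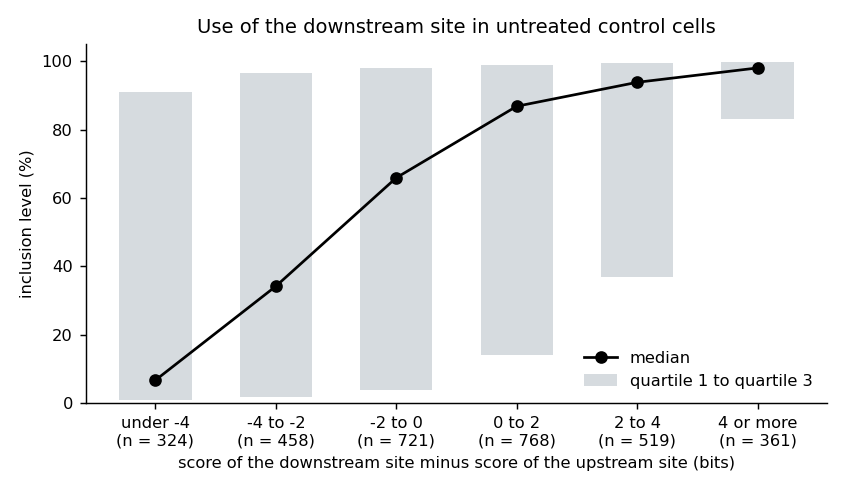
Inclusion level in untreated control cells (y axis, percent) for pairs grouped by the score of the downstream minus that of the upstream site (x axis, bits), with the median as points and quartiles 1 to 3 as grey bars. The median climbs from 6.74% to 98.0%, while the bars of the middle groups span most of the range.

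Pairs 4 nucleotides apart favoured the upstream site. Their median level was 2.61% over 104 pairs, 16.3% of them lay between 10 and 90%, and the rank correlation of level with score difference was 0.71. Among pairs with levels from 20 to 80% and outside chromosome 8, the 3 with most reads were in NDUFS5, METTL10 and CLASRP, a choice made on their untreated control levels. NDUFS5, a subunit of mitochondrial complex I, used the downstream site at 46.7, 42.2 and 47.5% in untreated control cells, and its 12 libraries ran from 42.2 to 50.2%. METTL10, a lysine methyltransferase, ran from 29.7 to 44.3%. CLASRP is described with the Cisplatin results.

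Over all members the inclusion level hardly moved. For the 2621 events with at least 10 reads in all 12 libraries, the median level was 69.3 to 72.4% and the mean 54.7 to 55.5% across libraries, and the groups overlapped in the median. The means of the 3 Cisplatin-treated depleted libraries, at 55.4, 55.4 and 55.5%, lay above those of the other 9, at 54.7 to 55.3%. The median difference over members was 0.00631 points for Cisplatin in control cells, 0.0468 for Cisplatin in depleted cells, 0.0316 for depletion in untreated cells and 0.105 for depletion in Cisplatin-treated cells. The changes that passed a test were therefore counted event by event. Called members are those with an adjusted p under 0.05 whose group means lay at least 20 points apart.

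Cisplatin in control cells called 4 of 3154 members, 2 higher and 2 lower, against 0.13% of all events of that table. At an adjusted p under 0.05 alone there were 32 members (1.01%) against 0.856% of all events, of which 18 were higher against 0.493%. Cisplatin in depleted cells called 18 of 3175 members, 9 in each direction, against 0.536% of all events. There 129 members (4.06%) passed adjusted p alone against 3.37%, 86 of them higher against 2.25%. Depletion in untreated cells called 1 of 3113 members, which was higher, against 0.0261% of all events, and 13 passed adjusted p alone (0.418% against 0.339%), 10 of them higher against 0.261%. Depletion in Cisplatin-treated cells called 10 of 3194 members, 6 higher and 4 lower, against 0.256% of all events. There 104 members (3.26%) passed adjusted p alone against 2.66%, 78 of them higher against 1.99%. Members make up about 4 of 5 events in each table, so their shares stay near those of the table.

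The split between higher and lower depended on the scaling. With each form scaled by its own total and TMM factor, the median log2 odds ratio of members moved from 0.014 to -0.181 for Cisplatin in control cells from 0.0546 to -0.0414 for Cisplatin in depleted cells and from 0.0464 to -0.078 for depletion in untreated cells, and it stayed above zero for depletion in Cisplatin-treated cells (0.105 and 0.136). The members past adjusted p 0.05 were then 11 higher and 22 lower for Cisplatin in control cells, 33.3% higher against 56.2%, and 5 higher and 3 lower for depletion in untreated cells, 62.5% higher against 76.9%. For Cisplatin in depleted cells 60 were higher and 44 lower, and for depletion in Cisplatin-treated cells 90 were higher and 23 lower. DESeq2 found 1, 29, 0 and 18 members past the same threshold in the order above, where the unadjusted edgeR p was under 0.05 for 280, 435, 236 and 379 members.

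**Figure D3:**
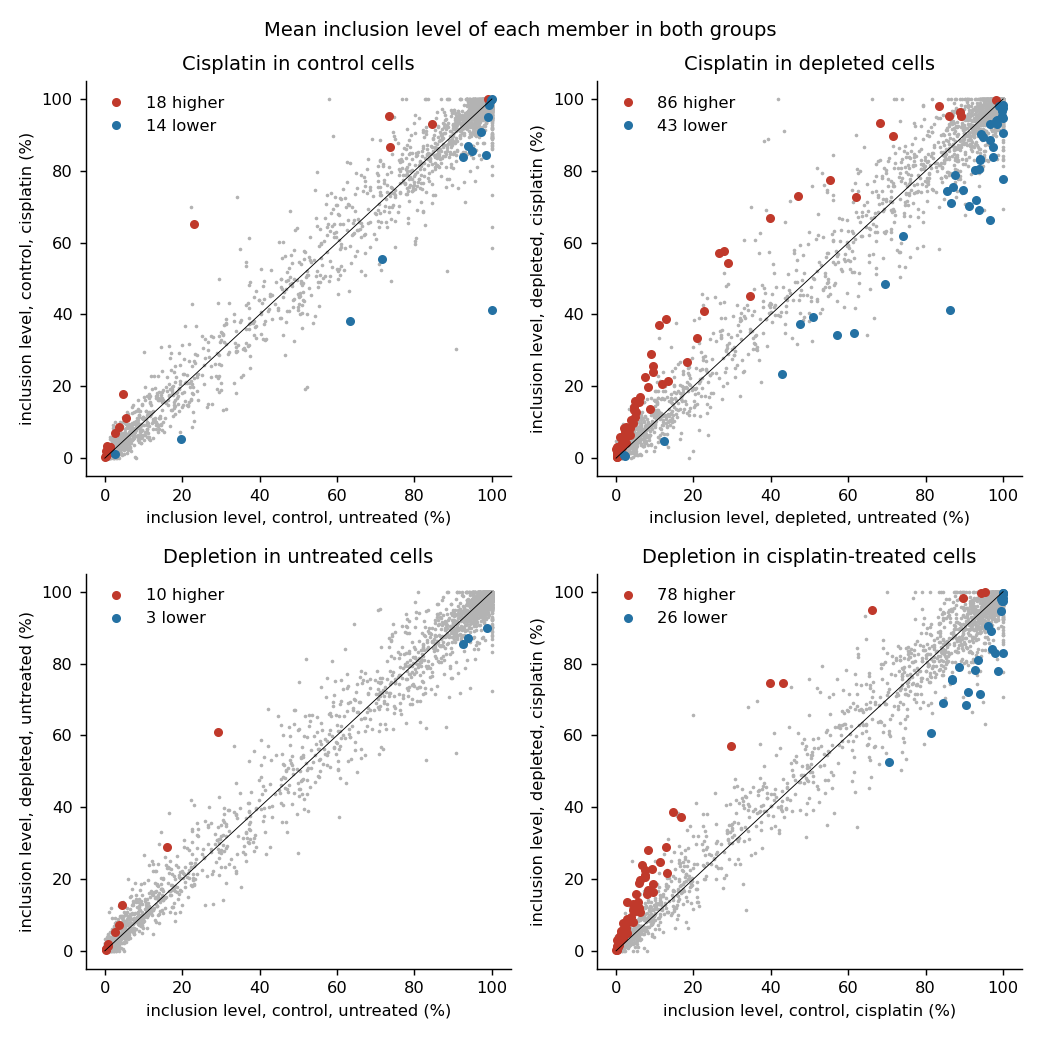
Mean inclusion level of each member in the first (x axis, percent) and second group (y axis, percent) of the 4 comparisons, with members past adjusted p 0.05 in red where higher and in blue where lower, and other members in grey. Red points crowd the lower left corner and blue points the upper right one, and the panels that hold Cisplatin-treated depleted cells have most coloured points.

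Most members that passed started near an end of the scale, as did most members of any kind. Upon Cisplatin in depleted cells, 66 of the 129 started under 10% and 64 of these rose, while 28 started over 90% and 27 of these fell. Of all 3175 members there, 824 started under 10% and 1473 over 90%. Upon depletion in Cisplatin-treated cells, 66 of 104 started under 10% and all 66 rose, and 22 started over 90% and 20 of these fell. Of all 3194 members there, 873 started under 10% and 1471 over 90%. A level near an end leaves room in 1 direction. The median size of the difference among members that passed was 5.5 points in the former and 5.64 points in the latter comparison.

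Upon Cisplatin in control cells, the called members were in GPR162, CDK20, UPP1 and PFDN5. All but UPP1 rested on few reads of the short form, and each of them lost the adjusted p in most fits without 1 library. UPP1, uridine phosphorylase, had levels of 63.6, 67.8 and 58.4% untreated and 40.9, 37.8 and 35.6% with Cisplatin, with no overlap (sites 112 nucleotides apart, log2 odds ratio -1.48 ± 0.37 SE, adjusted p = 0.0111). PFDN5, a prefoldin subunit, went from 73.4 ± 11.9% to 95.4 ± 2.05% (adjusted p = 0.0182), and CDK20, a kinase of the cyclin-dependent family, from 23.1 ± 16.9% to 65.3 ± 12.6% (adjusted p = 0.0245) on as few as 15 reads in a library. GPR162, an orphan receptor, had no read of the short form in untreated libraries and 4, 8 and 2 such reads with Cisplatin beside 23, 85 and 36 of the long form (adjusted p = 0.0324). Leaving out 1 library kept the adjusted p under 0.05 in 2 of 6 fits for UPP1, 1 of 6 for PFDN5 and CDK20 and 0 of 6 for GPR162. The highest of these p-values was 0.117 for UPP1 and 0.706 for GPR162, both without untreated control library b, 0.643 for CDK20 without untreated control library c and 0.399 for PFDN5 without untreated control library a. DESeq2 gave an adjusted p of 0.237 or more for every event named from this comparison.

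Among the better covered members of this comparison were 4 hosts of small nucleolar RNAs. How many of all such hosts passed was not counted. Of 12 members with such an RNA in the extension, 1 passed, where 0.856% of all events did. NOP56, a core protein of box C/D snoRNPs whose extension contains SNORD86, fell from 71.6 ± 3.61% to 55.3 ± 8.57% (adjusted p = 0.00346), and the noncoding host SNHG8 rose from 73.6 ± 1.57% to 86.7 ± 3.21% (adjusted p = 0.00554). GAS5, a noncoding host of several such RNAs, fell from 94.2, 95.7 and 91.8% to 85.2, 88.6 and 86.7% (191 nucleotides, adjusted p = 0.0179), and C6orf48 rose from 84.5 ± 3.79% to 93.1 ± 0.401% (adjusted p = 0.00883). These 4 hosts moved in both directions, and GAS5 passed in all 4 comparisons. It was at 86.5, 87.7 and 86.7% in untreated and 73.6, 80.2 and 72.5% in Cisplatin-treated depleted libraries (adjusted p = 8.7e-05 against untreated depleted and 0.00205 against Cisplatin-treated control cells). Adjusted p stayed under 0.05 in 3, 4, 2 and 2 of the 6 fits without 1 library for NOP56, SNHG8, GAS5 and C6orf48, and it was highest at 0.169 without Cisplatin-treated control library b, 0.15 without the same library, 0.281 without untreated control library b and 0.391 without untreated control library c. With the forms scaled by TMM it was 0.0519 for SNHG8 and 0.0602 for C6orf48.

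Further members with at least 50 reads in every library changed by less. DDX5, a DEAD-box RNA helicase, was at 91.7, 93.6 and 92.0% untreated and 78.7, 88.9 and 84.3% with Cisplatin (1461 nucleotides, adjusted p = 0.00252). SAT2, a relative of the polyamine acetyltransferase SAT1, fell from 98.4 ± 1.42% to 84.5 ± 4.34% (190 nucleotides, adjusted p = 0.00271), and NTMT1, an N-terminal methyltransferase, from 94.8 ± 1.62% to 85.4 ± 1.73% (64 nucleotides, adjusted p = 0.00313). MTO1, which modifies mitochondrial tRNA, rose from 4.78 ± 1.55% to 17.8 ± 7.8% (241 nucleotides, adjusted p = 0.00252). All 4 kept an adjusted p under 0.05 in at least 4 of the 6 fits without 1 library. They lost it without Cisplatin-treated control library a for DDX5 (0.198), untreated control library c for SAT2 (0.0992), untreated control library b for NTMT1 (0.0919) and, at most, Cisplatin-treated control library c for MTO1 (0.106).

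Upon Cisplatin in depleted cells, the largest called change was in NABP1, which encodes the single-stranded DNA-binding protein hSSB2. Its sites lie 464 nucleotides apart at exon 1, and the downstream site, which scored 11.19 bits against 5.99 upstream, took a smaller share. The level was 93.7, 95.2 and 70.2% in untreated depleted libraries and 35.3, 45.3 and 42.9% after Cisplatin (difference -45.21 points, log2 odds ratio -3.07 ± 0.5 SE, adjusted p = 1.57e-07). In control cells it was 69.7, 76.5 and 75.9% untreated and 46.6, 48.0 and 53.4% after Cisplatin. Both pairs of groups had no overlap, and the adjusted p in control cells was 0.107. The host mRNA was at 12.2 ± 0.814 CPM in untreated and 49.5 ± 2.85 CPM in Cisplatin-treated depleted cells, and the part of this rise in the result was not tested.

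CLASRP, an SR-related protein that binds the splicing kinase CLK4, changed at sites 4 nucleotides apart, the only member up to 6 nucleotides apart that passed in any of the 4 comparisons. The level was 26.9, 26.4 and 30.3% in untreated and 58.9, 48.6 and 65.5% in Cisplatin-treated depleted libraries (difference 29.81 points, adjusted p = 9.71e-05). Control cells stood at 38.5, 28.2 and 25.8% untreated and 32.1, 46.7 and 32.4% with Cisplatin, and these overlapped. All 3 Cisplatin-treated depleted libraries lay above the other 9. The site is at exon 15 of 21, and a shift by 4 nucleotides changes the reading frame.

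GUK1, guanylate kinase, and AMZ2, a metallopeptidase, changed in opposite directions. GUK1 was at 13.9, 14.2 and 10.9% in untreated and 41.7, 30.4 and 43.8% in Cisplatin-treated depleted libraries (219 nucleotides, adjusted p = 2.81e-07). AMZ2 was at 95.6, 89.0 and 94.1% in untreated and 75.1, 77.7 and 63.3% in Cisplatin-treated depleted libraries (497 nucleotides, adjusted p = 1.56e-10). In both genes the 3 Cisplatin-treated depleted libraries lay outside the range of the other 9. AMZ2 also passed upon Cisplatin in control cells, from 97.1 ± 2.18% to 90.9 ± 0.998% (adjusted p = 0.0358, and 0.683 without untreated control library c). SAT2 fell from 93.9 ± 0.89% to 69.0 ± 11% (adjusted p = 1.01e-06). NABP1, CLASRP, GUK1, AMZ2 and SAT2 kept an adjusted p under 0.05 in all 6 fits without 1 library and in DESeq2.

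The other called members varied in how firmly they held. Among those that rose were TMBIM6, which encodes Bax inhibitor 1, from 11.2 ± 1.42% to 37.2 ± 7.76% (adjusted p = 0.000748), the exosome subunit EXOSC2 from 47.0 ± 4.89% to 72.9 ± 7.31% (adjusted p = 0.00225) and the ubiquitin ligase ARIH2 from 26.5 ± 3.38% to 57.0 ± 15.9% (adjusted p = 0.0415). Among those that fell were C12orf29 from 96.6 ± 2.99% to 66.3 ± 6.3% (2064 nucleotides, adjusted p = 0.000962), FAM160A2 from 61.5 ± 0.266% to 34.8 ± 7.22% (adjusted p = 0.00691) and C1orf63 from 57.1 ± 1.79% to 34.2 ± 7.73% (adjusted p = 6.72e-05). The C12orf29 levels rest on 1, 0 and 1 reads of the short form before and 10, 9 and 14 after Cisplatin. They stood beside 519 to 700 reads of the long form. TMBIM6, C12orf29 and C1orf63 kept the call in all 6 fits without 1 library. EXOSC2 kept it in 4 and was highest at 0.087 without Cisplatin-treated depleted library a, FAM160A2 in 5 with 0.107 without Cisplatin-treated depleted library c, and ARIH2 in 1 with 0.26 without the same library. Of these 6 members, only TMBIM6 passed in DESeq2 (adjusted p = 0.0409), and with TMM between the forms ARIH2 was at 0.0895. Control cells had means, untreated and with Cisplatin, of 54.2 and 74.7% for EXOSC2 and 10.0 and 29.6% for ARIH2. For TMBIM6 they were 11.3 and 16.7%, and for C12orf29 85.8 and 81.7%. For FAM160A2 they were 49.8 and 41.2%, and for C1orf63 33.3 and 40.0%. None of these 6 events passed upon Cisplatin in control cells. FAM49B had no read of the short form in untreated depleted libraries and 5, 3 and 5 after Cisplatin beside 557 to 677 of the long form, so its level of 77.9 ± 5.97% rests on these few reads of the short form (2919 nucleotides, adjusted p = 0.00427). ZNHIT1, RTEL1, ALDH16A1, SGOL1, RPP30 and WDR4 made up the remaining called members, of which the first 4 rose and the last 2 fell.

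Several of the smallest adjusted p-values belonged to members far from the 20-point limit, though the called AMZ2, at 1.56e-10, was also among the smallest. RPL3, a protein of the large ribosomal subunit, rose from 0.438, 0.319 and 0.303% to 2.27, 2.05 and 5.01% (205 nucleotides, adjusted p = 6.53e-37). PABPC4, a cytoplasmic poly(A)-binding protein, rose from 5.98 ± 0.907% to 15.6 ± 1.49% (137 nucleotides, adjusted p = 4.8e-11), and NDUFV1, a subunit of complex I, from 5.14 ± 0.922% to 12.9 ± 2.82% (248 nucleotides, adjusted p = 2.09e-10). LAS1L, which acts in ribosomal RNA processing, rose from 1.77 ± 0.228% to 4.65 ± 0.646% (adjusted p = 2.8e-11). In these 4 genes the level did not exceed 17.2% in any library, and the adjusted p stayed under 0.05 without any 1 library.

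Upon depletion in untreated cells, RAB15, a small GTPase, was the only called member. Its level was 24.8, 39.8 and 22.7% in control and 67.2, 73.7 and 42.1% in depleted libraries (364 nucleotides, log2 odds ratio 2.02 ± 0.53 SE, adjusted p = 0.0351). The groups did not overlap, but depleted library c came near control library b, and the call held in 2 of 6 fits without 1 library, with an adjusted p of up to 0.622 without untreated depleted library b. NT5C, a nucleotidase, rose from 15.9 ± 1.39% to 29.0 ± 2.59% (80 nucleotides, adjusted p = 0.00481), LAS1L from 0.87 ± 0.166% to 1.77 ± 0.228% (adjusted p = 0.00481), NDUFV1 from 2.51 ± 0.573% to 5.14 ± 0.922% (adjusted p = 0.00593) and the potassium chloride cotransporter SLC12A4 from 4.34 ± 1.47% to 12.8 ± 4.65% (adjusted p = 0.00593). The 3 members that fell were DDX5, from 92.4 ± 1.02% to 85.3 ± 0.512% (adjusted p = 0.00679), GAS5, from 93.9 ± 1.99% to 87.0 ± 0.664% (adjusted p = 0.0215), and WBSCR22, an rRNA methyltransferase, from 98.7 ± 0.623% to 90 ± 4.12% (adjusted p = 0.019). These 7 members kept an adjusted p under 0.05 in 1 to 3 of the 6 fits without 1 library, and the p was highest, at 0.514 for WBSCR22, without untreated depleted library a. With TMM between the forms the adjusted p of RAB15 was 0.113, of NT5C 0.0864, and of LAS1L and NDUFV1 0.0971.

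Upon depletion in Cisplatin-treated cells, the 3 Cisplatin-treated depleted libraries were set against Cisplatin-treated control libraries. They are the same libraries that enter the Cisplatin comparison in depleted cells, so a library value that is high there is high here too. GUK1 was at 12.9, 13.7 and 17.6% in control and 41.7, 30.4 and 43.8% in depleted libraries (adjusted p = 7.02e-05), and AMZ2 at 90.7, 90.1 and 92.0% and 75.1, 77.7 and 63.3% (adjusted p = 6.83e-09). SMC4, a core subunit of condensin, was at 7.7, 4.11 and 7.95% in control and 27.0, 19.8 and 25.0% in depleted libraries (396 nucleotides, difference 17.32 points, adjusted p = 7.86e-08). These 3 members kept an adjusted p under 0.05 in all 6 fits without 1 library and in DESeq2. Of the 3, GUK1 passed the 20-point limit, while AMZ2 and SMC4, at 18.9 and 17.3 points, fell short of it.

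The other called members of this comparison, as far as they were followed, lost the adjusted p in at least 3 of the 6 fits without 1 library. WBSCR22 held 3 of them. At sites 99 nucleotides apart the level rose from 39.7 ± 10.7% to 74.7 ± 14.5% (adjusted p = 0.0103). The other 2 use the same sites, 768 nucleotides apart, with different next exons, and fell from 90.3 ± 6.83% to 68.4 ± 13.6% (adjusted p = 0.0441) and from 93.9 ± 5.27% to 71.6 ± 1.68% (adjusted p = 0.029). Another event at these sites, with at least 771 reads in every library, fell by less, from 97.0 ± 1.88% to 89.2 ± 1.8% (adjusted p = 0.0465, and 0.343 without Cisplatin-treated control library a). RAB15 rose from 43.1 ± 4.98% to 74.6 ± 1.1% (adjusted p = 0.0371) and OGFOD2, of the 2-oxoglutarate-dependent oxygenases, from 66.2 ± 12% to 95.0 ± 4.64% (adjusted p = 0.029). OGFOD2 had 5, 5 and 4 reads of the short form in control and 0, 2 and 1 in depleted libraries. CPSF7, a subunit of cleavage factor Im, fell from 81.4 ± 0.645% to 60.7 ± 8.35% (920 nucleotides, adjusted p = 0.0278), with 0 of 6 fits kept and an adjusted p of up to 0.388 without Cisplatin-treated depleted library c. FAM49B fell from 98.8 ± 2.07% to the depleted level given above (adjusted p = 0.0204, and 0.136 without Cisplatin-treated control library c). ARIH2 and TMBIM6 rose to the depleted levels given above from 29.6 ± 6.9% and 16.7 ± 0.997% (adjusted p = 0.0412 and 0.0251). Their highest adjusted p, 0.405 and 0.285, came without Cisplatin-treated depleted library c. It reached 0.24 for the first WBSCR22 event without Cisplatin-treated depleted library b, 0.578 for the first of those 768 nucleotides apart without library c of the same group, 0.285 for RAB15 without Cisplatin-treated control library a and 0.297 for OGFOD2 without Cisplatin-treated depleted library a.

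**Figure D4:**
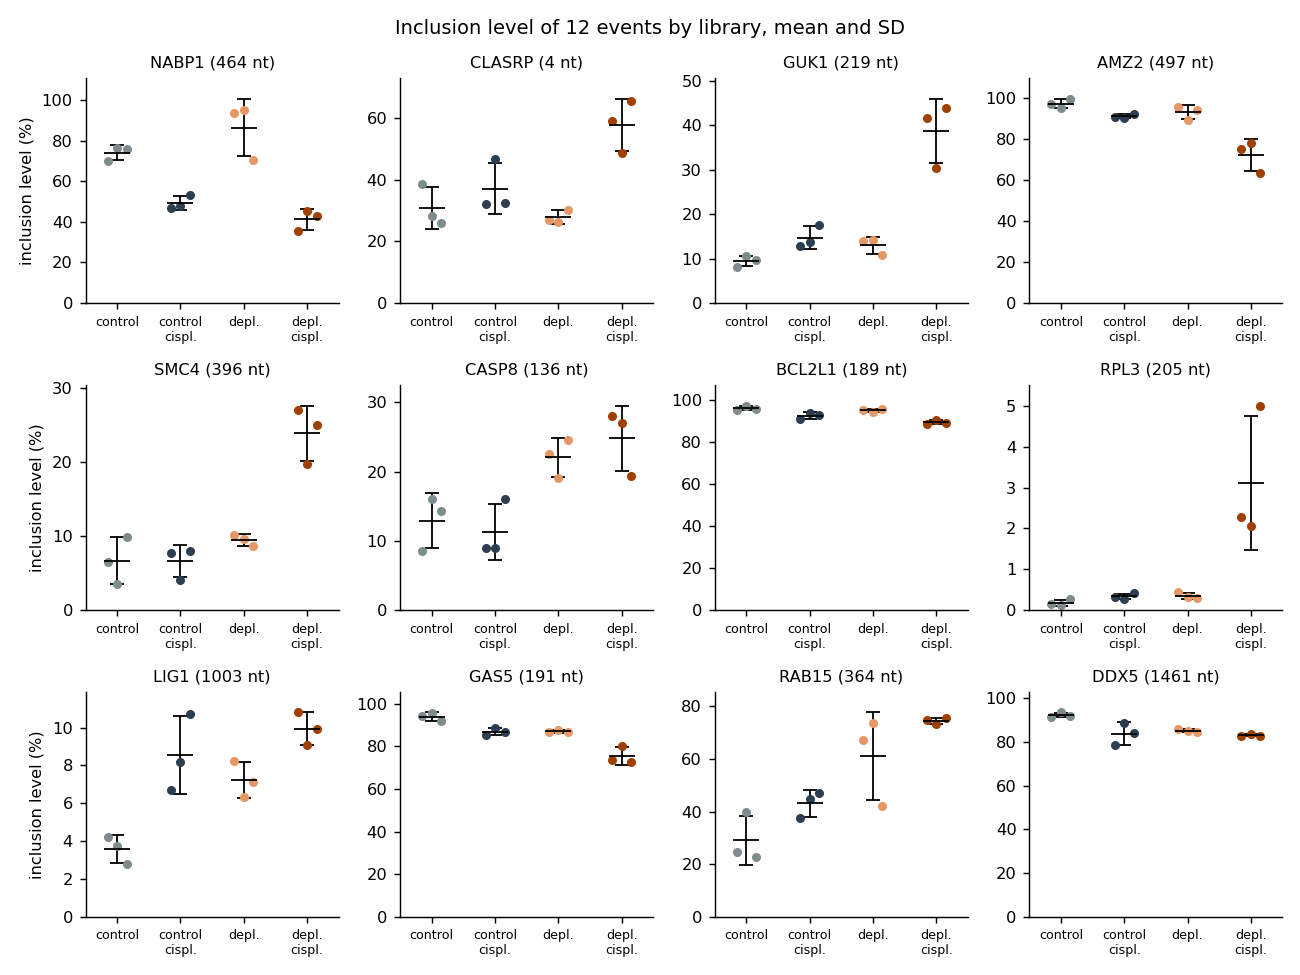
Inclusion level (y axis, percent, from 0, with a scale of its own in each panel) of 12 events in the 4 groups (x axis), with 1 point per library and bars for mean ± SD (n = 3). In GUK1, SMC4, RPL3 and CLASRP the 3 Cisplatin-treated depleted libraries lie above the other 9, and in AMZ2, BCL2L1 and GAS5 they lie below them.

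Whether Cisplatin acted differently in depleted and control cells was tested as an interaction over all 12 libraries, on 3214 events. Of the 2621 members with at least 10 reads in all libraries, 1 passed an adjusted p under 0.05 against 0.0311% of events, and none was also 20 points apart. This member was RPL3, with 0.17 ± 0.0771%, 0.336 ± 0.0662%, 0.353 ± 0.074% and 3.11 ± 1.65% in untreated control, Cisplatin-treated control, untreated depleted and Cisplatin-treated depleted cells (interaction log2 odds ratio 2.08 ± 0.43 SE, adjusted p = 0.00422). Reads of its long form were 111, 111 and 230 in the last group and 14 to 51 in the other 9 libraries, and those of the short form were 1133 to 1378 and 1900 to 3332. Library c of Cisplatin-treated depleted cells, at 5.01%, stood above the other two at 2.27 and 2.05%. The adjusted p of RPL3 stayed under 0.05 in 10 of 12 fits without 1 library and was 0.49 without that library and 0.343 without untreated control library c. DESeq2 gave it 0.999 at a like log2 odds ratio of 2.04. At an unadjusted p under 0.05 there were 185 members in edgeR and 84 in DESeq2, which found 0 past the adjusted threshold. The larger number of members past the threshold upon Cisplatin in depleted than in control cells is therefore a difference between counts, and the test of a difference between the effects themselves passed for RPL3 alone under this scaling, against 4 members with TMM between the forms and 0 to 3 without 1 library.

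Apoptosis genes held 13 members in 11 of the 45 genes listed. BCL2L1 encodes the long form Bcl-xL, which restrains apoptosis, from the downstream site and the short form Bcl-xS from the upstream site 189 nucleotides before it. Its level was 95.0, 94.2 and 95.4% in untreated and 88.6, 90.4 and 89.0% in Cisplatin-treated depleted libraries (log2 odds ratio -1.12 ± 0.29 SE, adjusted p = 0.00574). In control cells it was 95.1, 97.1 and 95.7% untreated and 90.7, 93.6 and 92.8% with Cisplatin, also with no overlap (adjusted p = 0.112), and the interaction was far from the threshold (adjusted p = 0.924). The downstream site thus remained the main site in every library. In depleted cells the adjusted p stayed under 0.05 in 3 of 6 fits without 1 library and reached 0.0816 without Cisplatin-treated depleted library a. DESeq2 gave an adjusted p of 0.307 there.

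CASP8 encodes the initiator caspase of death receptors. Its downstream site, 136 nucleotides after the upstream one at exon 7 of 9, brings an in-frame stop codon. The level was 8.92, 9.02 and 16.0% in control and 28.1, 27.0 and 19.4% in depleted libraries after Cisplatin (adjusted p = 0.000251), and 8.46, 16.0 and 14.3% against 22.6, 19.1 and 24.6% in untreated cells. Both pairs of groups had no overlap, and the adjusted p after Cisplatin stayed under 0.05 without any 1 library, though DESeq2 gave an adjusted p of 0.376. TNFRSF10B, death receptor 5, had no read of the short form in Cisplatin-treated control libraries and 1 to 6 in each of the other 9, beside 898 to 4178 reads of the long form. It passed upon Cisplatin in control cells (adjusted p = 0.00899) and upon depletion in Cisplatin-treated cells (adjusted p = 0.00255), with means that differed by less than 1 point. Without 1 library the former reached 0.239 (without untreated control library a), and the latter held in every fit. FDXR, a p53 target that encodes ferredoxin reductase, rose upon depletion in Cisplatin-treated cells from 2.23 ± 0.307% to 5.66 ± 0.524% (97 nucleotides, adjusted p = 0.000251). Among p53 targets 10 members in 7 of 28 genes were tested there, and 2 passed, 1 in each direction, where 2.66% of all events did.

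DNA damage and repair genes held 29 to 32 members in 19 to 21 of 78 genes, and 1 passed in each comparison, where the share over all events ran from 0.339% to 3.37%. This was LIG1, DNA ligase 1, in both comparisons with untreated control cells. Its level was 4.2, 3.73 and 2.77% in untreated control cells, and it rose to 6.69, 8.19 and 10.7% with Cisplatin (1003 nucleotides, adjusted p = 0.00313) and to 8.22, 6.35 and 7.13% with depletion alone (adjusted p = 0.00593). With both it was 10.8, 9.1 and 9.91%. The 3 untreated control libraries lay below the other 9, and both comparisons share them. The extension holds an in-frame stop codon. Without 1 library the adjusted p reached 0.157 for Cisplatin (without untreated control library c) and 0.387 for depletion (without untreated depleted library a), and with TMM between the forms the latter was 0.105.

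APEX1, the main endonuclease at abasic sites, was the repair gene that passed in the other 2 comparisons. It was at 2.59, 2.8 and 3.23% in untreated depleted, 2.2, 2.41 and 2.55% in Cisplatin-treated control and 6.14, 5.8 and 6.39% in Cisplatin-treated depleted libraries (70 nucleotides, adjusted p = 0.000256 against the first and 0.000605 against the second). Both adjusted p-values stayed under 0.05 without any 1 library, and DESeq2 gave 0.137 for the first. Its longer intron is also listed as a retained intron. BRCA1, which acts in repair by homologous recombination, and MDM2 held members that passed in none of the comparisons. The 3 BRCA1 members, at 3309, 22 and 6 nucleotides, had group means of 75.7 to 83.8%, 82.5 to 95.6% and 48.8 to 67.3%, with adjusted p-values of 0.617 or more. MDM2, the ubiquitin ligase of p53, was at 93.4 to 94.8% in the group means, while its host mRNA was at 110 ± 5.46 CPM in untreated and 1280 ± 111 CPM in Cisplatin-treated control cells.

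Genes of the spliceosome and its regulators held 48 to 53 members in 28 to 31 of 89 genes. None passed in the comparisons that lack Cisplatin-treated depleted cells, 5 of 50 passed upon Cisplatin in depleted cells (2 higher and 3 lower) and 3 of 53 upon depletion in Cisplatin-treated cells (2 higher and 1 lower). Over all events the shares that passed were 3.37% and 2.66% in these comparisons and 0.856% and 0.339% in the comparisons with none. HNRNPH1, an RNA-binding protein of G-rich motifs, was at 88.2, 86.4 and 87.9% in untreated depleted, 87.8, 88.4 and 89.4% in Cisplatin-treated control and 79.5, 80.4 and 76.8% in Cisplatin-treated depleted libraries (152 nucleotides, adjusted p = 0.00173 and 0.00632). Its 2 sites, printed above, have the same score of 2.13 bits, and its longer intron is also listed as a retained intron. HNRNPC, an RNA-binding protein of U-rich tracts, was at 50, 49.8 and 53.2% untreated and 41.1, 38.5 and 42.0% with Cisplatin in control cells, and at 46.5, 48.1 and 47.8% and 36.4, 37.5 and 38.5% in depleted cells, where it passed (39 nucleotides, adjusted p = 0.022). Cisplatin-treated libraries of either shRNA lay below the untreated ones. SNRNP70, the 70 kDa protein of U1 snRNP, passed at 1 pair upon Cisplatin in depleted cells, from 85.9 ± 2.63% to 95.1 ± 0.454% (1414 nucleotides, adjusted p = 0.0033), and at a second pair that shares the downstream site upon depletion with Cisplatin, from 94.4 ± 3.32% to 99.6 ± 0.663% (1402 nucleotides, adjusted p = 0.021). At the second pair the short form had 4, 8 and 2 reads in control and 0, 2 and 0 in depleted libraries after Cisplatin. The long form had 993 to 3525 reads there. PPIE, a spliceosomal cyclophilin, rose from 0.658 ± 0.123% to 1.5 ± 0.192% upon Cisplatin in depleted cells (adjusted p = 0.00029), and TAF15, an RNA-binding protein of the FET family, went from no read of the short form in any untreated depleted library to 2, 1 and 6 reads beside 845, 949 and 648 of the long form (adjusted p = 0.022).

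Of these splicing genes, HNRNPH1 and PPIE kept an adjusted p under 0.05 upon Cisplatin in depleted cells without any 1 library. The adjusted p reached 0.224 for HNRNPC without Cisplatin-treated depleted library a, 0.0811 for SNRNP70 without untreated depleted library a and 0.428 for TAF15 without Cisplatin-treated depleted library c. Upon depletion in Cisplatin-treated cells it reached 0.078 for HNRNPH1 without Cisplatin-treated depleted library c, 0.33 for SNRNP70 without Cisplatin-treated control library b and 0.44 for PPIE without Cisplatin-treated control library a. DESeq2 gave an adjusted p of 0.175 or more for each of these results of splicing genes. For HNRNPH1 and PPIE upon Cisplatin in depleted cells it was 0.349 and 0.196. Factors of nonsense-mediated decay held 4 to 6 members. The median difference of each list lay within 1 point of zero, save for nonsense-mediated decay upon depletion in untreated cells, where 4 members had a median of -2.74 points.

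The share of members that passed differed between distance classes. Upon Cisplatin in depleted cells it was 0.472% of 212 members up to 6 nucleotides apart, 1.48% of 943 from 7 to 50, 4.85% of 1072 from 51 to 200, 6.09% of 591 above 200 and up to 500 and 7.28% of 357 above 500. Depth moved with distance: the median of the lowest library was 58.5 reads in the first class and 251 in the last. Among members whose lowest library held 50 to 200 reads, a limit chosen after the values were seen, the shares were 1.33, 1.66, 4.38, 4.13 and 3.23% in the same order. Upon depletion in Cisplatin-treated cells these shares were 0, 1.81, 3.54, 4.61 and 2.78%. At like depth, pairs within 50 nucleotides thus passed at lower shares than pairs 51 to 500 apart in both comparisons, on 0 to 17 members per class, and the rise above 50 nucleotides was not kept. These shares are descriptions, with no test. Of the 97 to 103 members 4 nucleotides apart in a comparison, only CLASRP passed, in 1 comparison.

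**Figure D5:**
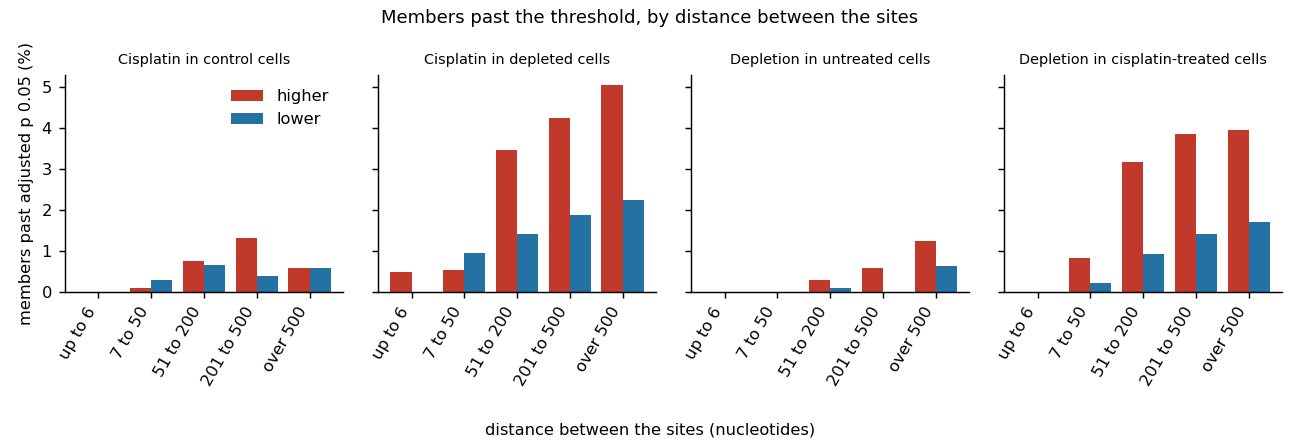
Percent of members past adjusted p 0.05 (y axis) by distance between the sites in nucleotides (x axis) in the 4 comparisons, with red bars for higher and blue bars for lower inclusion. Bars grow with distance in the 2 comparisons that hold Cisplatin-treated depleted cells, where depth also grows with distance.

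Members whose extension brings an in-frame stop codon passed more often than other coding members. Within the class of 51 to 200 nucleotides, upon Cisplatin in depleted cells, 26 of 356 members with such a stop passed (22 higher and 4 lower, 7.3%), against 14 of 411 without one (8 higher and 6 lower, 3.41%). Upon depletion in Cisplatin-treated cells 26 of 349 passed (21 higher and 5 lower, 7.45%) against 6 of 409 (5 higher and 1 lower, 1.47%). The median of the lowest library was 102 and 111 reads in the former and 108 and 117 in the latter comparison. These counts are descriptions, and the 2 comparisons share the Cisplatin-treated depleted libraries. Over all distances, 11 of 1104 coding members with a stop and 0 of 1273 without one passed upon depletion in untreated cells, in edgeR. There the median of the lowest library was 158 reads with a stop and 103 without one. From 51 to 200 nucleotides 2 of 359 and 0 of 395 passed. Members with distances that are multiples of 3 passed at 3.47% of 1295 against 4.47% of 1880 upon Cisplatin in depleted cells, and at 2.77% of 1301 against 3.59% of 1893 upon depletion in Cisplatin-treated cells.

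The members that rose and those that fell also differed in their sites. Upon Cisplatin in depleted cells the 86 that rose had median scores of 7.55 bits upstream and 6.52 downstream, and the downstream site was the higher one in 40.7% of them. The 43 that fell had 7.29 and 6.65 bits, with the downstream site higher in 55.8%, and the 3046 other members had 6.55 and 6.96 bits and 52.5%. Upon depletion in Cisplatin-treated cells the downstream site was the higher one in 43.6% of 78 that rose, 57.7% of 26 that fell and 52.1% of the rest. Their starting levels differ as well, with medians of 2.44 and 94.1% for those that rose and fell in the former comparison.

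The longer intron of some members, from the upstream site to the next exon, was also listed as a retained intron, and reads in the extension enter both values. Of 258 such members upon depletion in Cisplatin-treated cells, 19 passed and in 14 of these the retained intron passed too. It was higher in 11, and all 11 members were higher as well. Upon Cisplatin in depleted cells 17 of 254 passed, 16 of them with the intron, which was higher in 9, and all 9 members were higher. The median difference over these members was 0.17 points against 1.55 points for their introns in the former comparison, and 0.109 against 0.558 points in the latter. Upon depletion in untreated cells it was 0.207 against 0.979 points over 250 members, of which 4 passed, and upon Cisplatin in control cells 0.0351 against -0.00816 points over 247. The part of unspliced reads in the levels of other members was not tested.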

How the data were processed

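The authors prepared stranded mRNA libraries, aligned reads to hg19 with STAR 2.5.2b and ran rMATS on Ensembl annotation. The splicing tables that they deposited hold, in 1 cell per group, the raw reads of each form in 3 libraries, together with form lengths. They also hold the authors' p-values, FDR and inclusion differences, which were not used. Gene files hold counts of read pairs per gene, deposited without normalization, and were scaled here to CPM.

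Inclusion levels were recomputed from reads and form lengths. The reads of both forms were tested with edgeR 4.0.16 in R 4.3.3 (quasi-likelihood, with a term per library, a term for the form and its change between groups), after tests on simulated data, and DESeq2 1.42.0 was an alternative. RNF113A was compared with an exact permutation test. Sites were placed on GENCODE transcripts and scored with a matrix of annotated sites, with Python 3.11.15 and pysam 0.24.0. Reads of groups shared between tables were identical in all 42900 values for these events and in 47129 of 47625 for retained introns.

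The members and gene lists were chosen with earlier results of these data known. Events were named by a rule, with 1 event for each pair of sites: called members (the 15 with the largest change at most per comparison), the 5 largest rises and falls whose groups did not overlap and whose lowest library held 50 reads or more, list genes past adjusted p 0.05, and genes that the study discusses. The alternatives were other tools, scaling, limits, read minimums and fits that left out 1 library at a time. Some of the events named by this rule are not reported here.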

Additional observations from a re-analysis of the deposited data

Results flagged for a closer look

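The RPL3 pair 205 nucleotides apart was the 1 member for which the effect of Cisplatin differed between depleted and control cells by the interaction test (adjusted p = 0.00422 in edgeR and 0.999 in DESeq2), where edgeR with TMM between the forms found 4 such members. The level rose from 0.353 ± 0.074% to 3.11 ± 1.65% upon Cisplatin in depleted cells, and it was 0.17 ± 0.0771% and 0.336 ± 0.0662% in untreated and Cisplatin-treated control cells. The host mRNA was at 1860 ± 121 and 1050 ± 43.7 CPM in depleted and 1680 ± 141 and 1160 ± 43.4 CPM in control cells, in the same order. Without Cisplatin-treated depleted library c the adjusted p was 0.49, and without untreated control library c it was 0.343.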

How the results depend on the processing

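Members called numbered 4 for Cisplatin in control cells, 18 for Cisplatin in depleted cells, 1 for depletion in untreated cells, 10 for depletion in Cisplatin-treated cells and 0 for the interaction. DESeq2 called 0, 7, 0, 1 and 0, a limit of 10 points gave 9, 44, 2 and 32 in the first 4, and no limit gave 32, 129, 13, 104 and 1. A minimum of 50 reads gave 1, 15, 0 and 6 in the first 4, and a minimum of 20 reads gave 2 in the first. TMM between the forms gave 0 in the third and 1 in the interaction, a fit on members only gave 2 in the third, and all 12 libraries in one fit gave 7 in the first and 2 in the third. Shares without form lengths gave 19 in the fourth. Leaving out 1 library gave 0 to 2, 9 to 19, 0 to 1, 2 to 7 and 0 to 1 called, and at adjusted p 0.05 alone 12 to 25, 77 to 109, 4 to 12 and 41 to 82 in the first 4. Such fits have fewer samples, and otherwise the cause was not tested.

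Named events passed 88 times over the comparisons. None changed direction in any alternative. DESeq2 kept 19 of the 88 under 0.05, TMM 73, members only and shares without form lengths 88, and fits without 1 library kept 312 and lost 216. Few reads of the rarer form limit the levels near 0 and 100%.

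With the replicate block, the differences in RNF113A stayed at -3.5 CPM in untreated and -2.54 CPM in Cisplatin-treated cells, and 3 pairs cannot give an exact p under 0.25. Leaving out 1 library gave -3.85 to -3.18 and -3.94 to -1.48 CPM. No paired analysis was possible because the splicing table does not say which library of a group is which replicate.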
